A study of Mus musculus with 6 samples.

Results

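Tetraspanin genes were followed in Foxp3+ T regulatory (Treg) cells with and without HDAC11, through 7 genes given by name: Cd37, Cd53, Cd81, Cd9, Cd82, Cd151 and Cd63. The genes were chosen by name, as tetraspanins, and not by a threshold on their values, but with earlier results of these data known. Of the 7 genes, 6 had at least 1 probe set annotated to that gene alone, and these carried 13 of the 22626 probe sets tested, or 6 of 12393 genes. Cd63 was not analysed here. The series held 6 Affymetrix Mouse430A arrays of CD4+CD25+ Tregs separated with magnetic beads, 3 labelled HDAC11−/− and 3 labelled WT. The HDAC11−/− cells carried the floxed allele together with Foxp3cre (fl-HDAC11/Foxp3cre), so that Cre was driven from the Foxp3 locus. The WT cells were labelled wild type C57BL6, and their label names no Cre allele. With no group labelled as Cre alone, loss of HDAC11 and presence of the Cre allele cannot be told apart. Foxp3− cells carried along in a CD4+CD25+ fraction would keep an intact gene. The labels give no age. Whether the arrays stand for separate mice is not said in them either, and the p-values therefore cover the variation among these samples alone, which may be technical.

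Tetraspanins are small proteins that cross the membrane several times and gather integrins, receptors and one another into membrane microdomains. Several of them mark endosomes and the vesicles that cells release, and others set how receptors are held at the surface of lymphocytes. In lymphocytes, Cd37 and Cd53 are leukocyte tetraspanins, Cd81 associates with CD21 on B cells, Cd9 and Cd82 associate with integrins and adhesion receptors, and Cd151 binds laminin-binding integrins.

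Among the tetraspanin genes, 1 of 2 probe sets of Cd37 and 2 of 6 of Cd151 were called lower in HDAC11−/− Tregs, and none was called higher. By its brightest probe set alone, neither gene was called. A call required an adjusted p under 0.05 (limma, Benjamini-Hochberg over all probe sets tested) and at least a 1.5-fold difference. Of the 13 probe sets, 3 were called lower, 1 of Cd37 and 2 of Cd151, against 5.03% of all probe sets. No tetraspanin probe set was called higher, against 3.87% of all probe sets. By the adjusted p alone 6 of the 13 were lower, against a background of 22.4%, and 0 were higher, against 23.2%. Counted by position, 8 of the 13 had all HDAC11−/− arrays below all WT arrays, where 28.5% of all probe sets did, and 1 had them above, where 28.2% did. Cd151 alone gave 4 of the 6 lower by the adjusted p and 4 of the 8 lower by position. These counts therefore take 1 gene several times and do not describe the family. The median log2 fold change was −0.19 over the 13 probe sets and −0.03 over all probe sets, on a scale where all fold changes are HDAC11−/− minus WT.

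**Figure D1:**
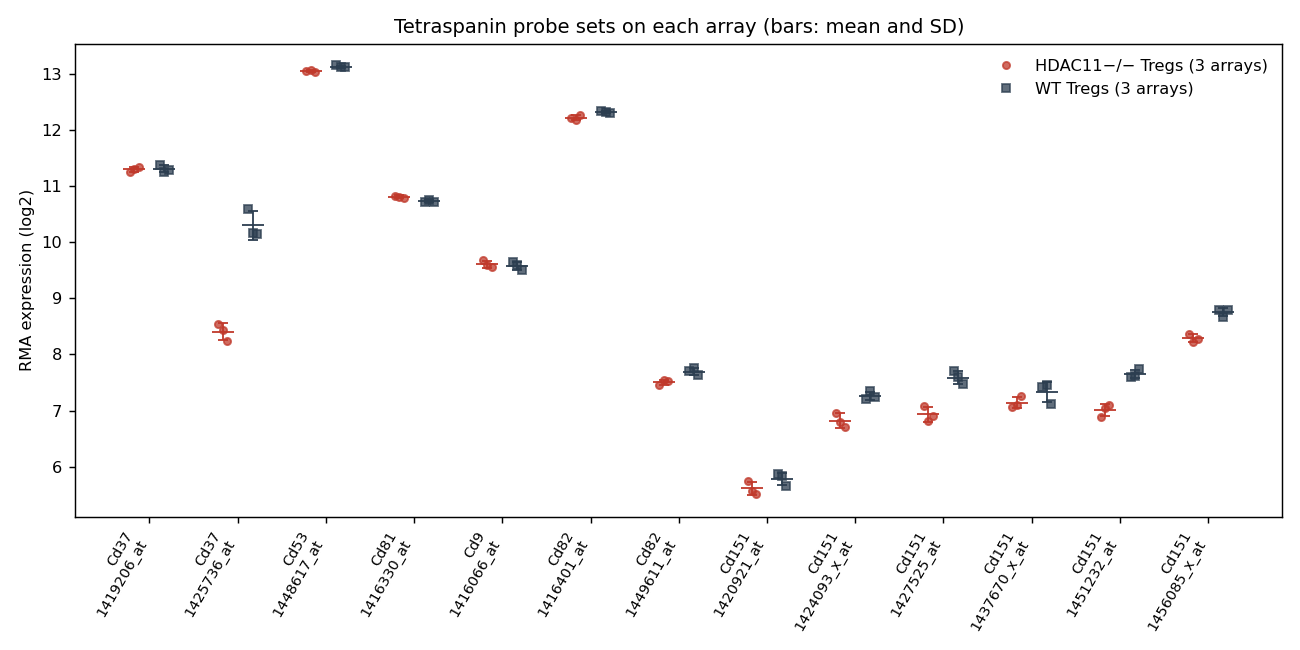
The RMA log2 value of each tetraspanin probe set (y axis) is plotted for every array, with HDAC11−/− arrays left of WT arrays and bars for the mean and SD of 3 arrays. The called Cd37 probe set has its 3 HDAC11−/− arrays between 8.24 and 8.54 and its WT arrays between 10.14 and 10.59, while the other Cd37 probe set overlaps between genotypes.

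The plot of values by array shows that the 3 arrays of a genotype lay close together for most tetraspanin probe sets. The labels record no batch. The first principal component over all probe sets carried 80.9% of the variance, and the SD of a probe set had a median of 0.07 over the HDAC11−/− arrays and 0.09 over the WT arrays in log2 units. The 2 probe sets of Hdac11 itself had log2 fold changes of −0.12 (SE 0.07, adjusted p = 0.222 by limma) and −0.10 (SE 0.12, adjusted p = 0.532 by limma). The brighter of them read 6.36, 6.28 and 6.22 in HDAC11−/− and 6.31, 6.36 and 6.53 in WT, and the other read 5.35, 5.41 and 5.79 in HDAC11−/− and 5.69, 5.49 and 5.68 in WT. Whether those probes match exons that Cre removes was not known here, so they check no label. All 13 tetraspanin probe sets lay above every bacterial control probe set on all 6 arrays, and the highest of those controls ran from 5.06 to 5.48 per array.

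Cd37, a tetraspanin of leukocytes that is abundant on mature B cells, had 2 probe sets that read differently. Probe set 1425736_at read 8.54, 8.44 and 8.24 log2 units on the HDAC11−/− arrays and 10.59, 10.17 and 10.14 on the WT arrays. The genotypes did not overlap, and every HDAC11−/− array was below every WT array. The means were 8.41 ± 0.15 in HDAC11−/− and 10.30 ± 0.25 in WT (SD, n = 3 each), a log2 fold change of −1.89 (SE 0.14, 95% interval −2.22 to −1.56) or 3.71-fold lower, with an adjusted p of 0.000127 by limma. It ranked 60 among the 22626 probe sets, counted from the most negative fold change.

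Probe set 1419206_at of Cd37 read 11.25, 11.31 and 11.34 on the HDAC11−/− arrays and 11.38, 11.26 and 11.29 on the WT arrays. These values overlap between the genotypes. The log2 fold change was −0.01 (SE 0.05, 95% interval −0.14 to 0.12, adjusted p = 0.891 by limma). The fall of Cd37 was thus seen by 1 of its probe sets and not by the other, and Cd37 was among the genes the study chose to display from these arrays, so its fall is not independent evidence of that direction.

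The difference between both Cd37 probe sets was itself tested, as the within-array value of 1419206_at minus 1425736_at. It was 2.72, 2.87 and 3.10 on the HDAC11−/− arrays and 0.79, 1.09 and 1.16 on the WT arrays. No HDAC11−/− array came near a WT array in this difference. The fold changes of both probe sets differed by 1.88 on the log2 scale (SE 0.13, 95% interval 1.57 to 2.20, adjusted p = 9.93e-05 by limma over all pairs of probe sets of 1 gene). By size this ranked 103 among 12821 such pairs. RefSeq lists 3 curated transcripts for Cd37 and no gene that overlaps it, and which transcripts each probe set reads was not tested.

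Cd151, a partner of laminin-binding integrins in cell adhesion, had 6 probe sets, all with a negative log2 fold change. These ranged from −0.65 to −0.17 with a median of −0.45, and 4 of the 6 passed the adjusted p and did not overlap between genotypes. Probe set 1427525_at read 7.08, 6.82 and 6.91 in HDAC11−/− and 7.70, 7.59 and 7.48 in WT. Its genotypes were separate. The log2 fold change was −0.65 (SE 0.09, 95% interval −0.86 to −0.45, adjusted p = 0.00137 by limma), or 1.57-fold lower.

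Probe set 1451232_at of Cd151 read 6.89, 7.05 and 7.09 in HDAC11−/− and 7.60, 7.62 and 7.74 in WT, again with no overlap. The log2 fold change was −0.64 (SE 0.07, 95% interval −0.81 to −0.47, adjusted p = 0.000629 by limma), or 1.56-fold lower. Without HDAC11−/− replicate 1 it was −0.58, short of the fold threshold, and the count of called tetraspanin probe sets was then 2.

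Of the other 4 Cd151 probe sets, 1456085_x_at read 8.37, 8.23 and 8.28 in HDAC11−/− and 8.80, 8.67 and 8.79 in WT. It was lower by the adjusted p but under the fold threshold, at −0.46 (SE 0.06, adjusted p = 0.00131 by limma). Probe set 1424093_x_at read 6.96, 6.80 and 6.70 in HDAC11−/− and 7.20, 7.34 and 7.25 in WT, and was lower by the adjusted p at −0.44 (SE 0.08, adjusted p = 0.00423 by limma). This probe set lists the same source sequence as 1451232_at, so the values of both are not separate evidence, and the suffix _x_at marks probes that can match other sequences.

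The remaining Cd151 probe sets did not pass the test. Probe set 1437670_x_at read 7.07, 7.10 and 7.26 in HDAC11−/− and 7.42, 7.45 and 7.12 in WT, at −0.19 (SE 0.10, adjusted p = 0.164 by limma). Probe set 1420921_at read 5.74, 5.57 and 5.52 in HDAC11−/− and 5.87, 5.83 and 5.66 in WT, at −0.17 (SE 0.08, adjusted p = 0.130 by limma). It came within 0.35 of the highest bacterial control on at least 1 array. Both overlap between genotypes.

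Set against one another, the 6 Cd151 probe sets form 15 pairs, of which 0 were called different and 4 passed the adjusted p. The median size of the 15 differences was 0.25, beside 0.21 over all pairs of the array. Over the 17 pairs of the tetraspanin genes with several probe sets, 1 was called, that of Cd37, against 13.1% of all pairs, and 5 passed the adjusted p, against 31.1%. Probe sets of a gene share their target, and pairs of a gene share probe sets.

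**Figure D2:**
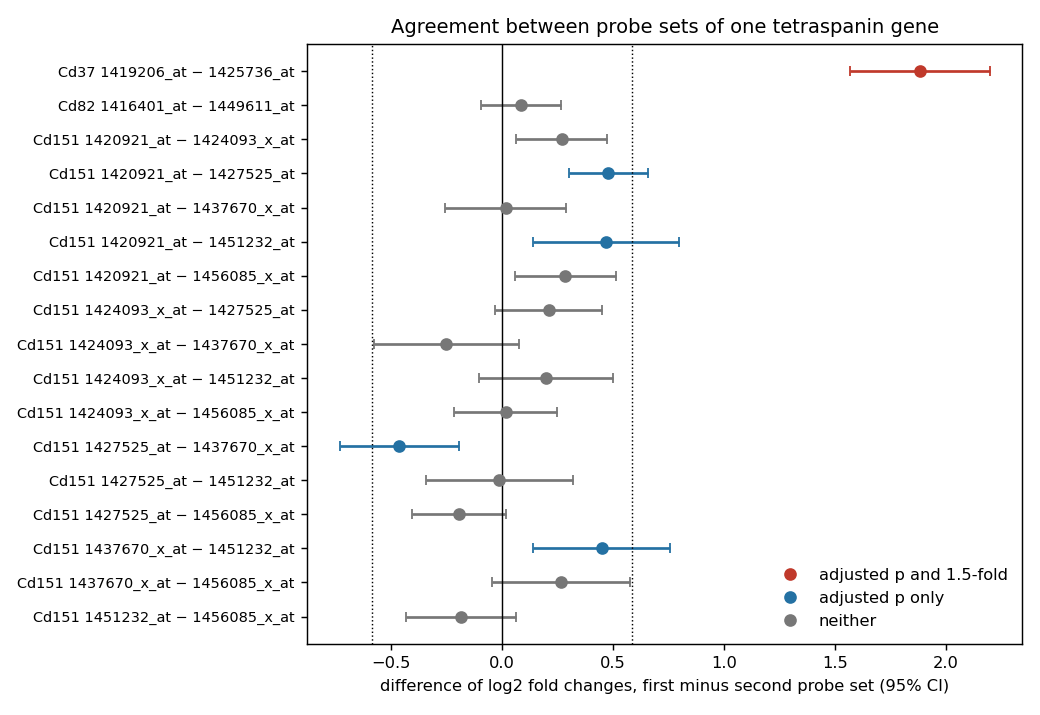
For each of the 17 pairs of probe sets of 1 tetraspanin gene (rows), the difference between both log2 fold changes, first minus second (x axis), is drawn with its 95% interval from limma, coloured by whether it passed the adjusted p and the 1.5-fold threshold (dotted lines). The Cd37 pair stands at 1.88, and the Cd151 pairs lie between −0.46 and 0.48.

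Cd53, a leukocyte tetraspanin of T and B cells, had 1 probe set, 1448617_at, which read 13.05, 13.07 and 13.03 in HDAC11−/− and 13.15, 13.12 and 13.12 in WT. All HDAC11−/− arrays lay below all WT arrays, with a log2 fold change of −0.08 (SE 0.04, 95% interval −0.18 to 0.02, adjusted p = 0.176 by limma). Cd81 had 1 probe set, 1416330_at, which read 10.83, 10.81 and 10.78 in HDAC11−/− and 10.72, 10.75 and 10.72 in WT, and was the 1 probe set with all HDAC11−/− arrays above all WT arrays. Its log2 fold change was 0.08 (SE 0.04, 95% interval −0.03 to 0.18, adjusted p = 0.197 by limma), and −0.05 when the arrays were scaled on reference genes. For both genes the interval lay within 0.2 of 0.

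Cd9, which associates with integrins and is a marker of released vesicles, had 1 probe set, 1416066_at, which read 9.68, 9.59 and 9.55 in HDAC11−/− and 9.65, 9.59 and 9.51 in WT. The genotypes overlap, and the log2 fold change was 0.02 (SE 0.06, 95% interval −0.12 to 0.17, adjusted p = 0.767 by limma), with −0.10 on the scale of reference genes. Cd82, first known as a suppressor of metastasis, had 2 probe sets. Probe set 1416401_at read 12.22, 12.18 and 12.27 in HDAC11−/− and 12.34, 12.32 and 12.31 in WT, at −0.10 (SE 0.05, adjusted p = 0.109 by limma). Probe set 1449611_at read 7.45, 7.54 and 7.53 in HDAC11−/− and 7.70, 7.76 and 7.63 in WT, and was lower by the adjusted p at −0.19 (SE 0.05, adjusted p = 0.0277 by limma), short of the fold threshold. Without single arrays its adjusted p reached 0.0904. Both Cd82 probe sets had no overlap between genotypes, and their fold changes differed by 0.09 (95% interval −0.10 to 0.27, adjusted p = 0.434 by limma).

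**Figure D3:**
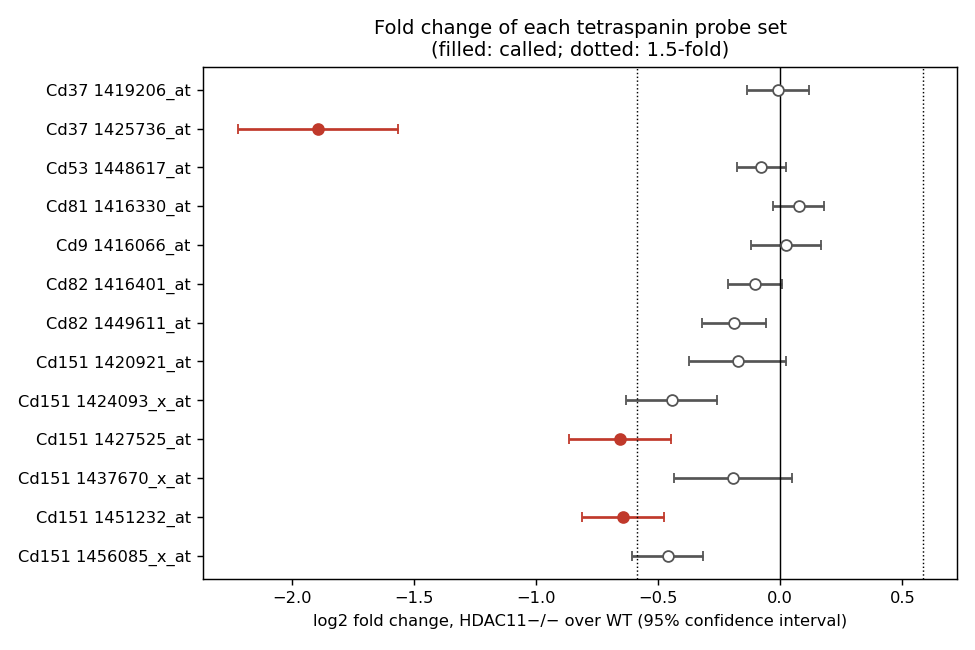
Log2 fold changes of the 13 tetraspanin probe sets, HDAC11−/− minus WT (x axis), are drawn with 95% intervals from limma, filled where called, with dotted lines at 1.5-fold. The called Cd37 probe set stands at −1.89 and the next lowest, of Cd151, at −0.65.

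The plot of fold changes shows the called Cd37 probe set apart from the other 12, which ran from −0.65 to 0.08. On the scale of reference genes, which moved the median of all probe sets by −0.13, the fold changes of Cd81 and Cd9 were negative, 10 of the 13 passed the adjusted p as lower, and Cd151 1456085_x_at was called at −0.59. Those 10 include Cd53 at −0.21 and Cd82 1416401_at at −0.23. Cd37 1425736_at ran from −2.02 to −1.75 over 15 other settings, with an adjusted p of at most 0.00126 in those fitted by limma. Several of the settings, such as SAM, an intensity trend and other fold thresholds, cannot change the fold change.

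Promoter sequence is shown for Cd37 and Cd151, the genes with called probe sets, as RefSeq gives it in GRCm38.p6, from 250 bases before the start to 50 after it. Cd37 lies on the minus strand with the window chr7:45238790-45239089, and Cd151 on the plus strand with its first window at chr7:141467112-141467411. Capitals mark the GC box GGGCGG and the E-box CACGTG, on either strand.
Cd37: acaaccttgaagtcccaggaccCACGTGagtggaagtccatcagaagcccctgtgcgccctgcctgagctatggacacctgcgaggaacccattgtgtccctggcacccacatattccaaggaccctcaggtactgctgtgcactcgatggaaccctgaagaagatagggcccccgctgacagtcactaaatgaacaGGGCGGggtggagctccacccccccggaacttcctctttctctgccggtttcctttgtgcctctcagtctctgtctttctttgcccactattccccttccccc
Cd151: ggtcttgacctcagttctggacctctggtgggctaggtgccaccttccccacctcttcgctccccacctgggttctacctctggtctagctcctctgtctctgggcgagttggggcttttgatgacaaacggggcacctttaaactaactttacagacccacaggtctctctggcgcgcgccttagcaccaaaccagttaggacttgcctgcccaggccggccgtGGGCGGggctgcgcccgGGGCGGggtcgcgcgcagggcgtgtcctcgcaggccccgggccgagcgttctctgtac
The Cd37 window held 1 GC box, with its first base 53 bases before the start, and 1 E-box, 228 bases before it. The first Cd151 window held 2 GC boxes, 25 and 8 bases before the start. The second Cd151 window, which is not shown, held no GC box and no E-box. Over all 32851 promoters of the same length, 35.7% held GGGCGG and 7.15% held CACGTG on either strand. The AP-1 motif TGANTCA, present in 7.81% of promoters, and the ETS motif CCGGAAG, present in 8.86%, were in none of these windows. The letters are a description and not a binding site.

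Genes whose 6 values, each minus its own WT mean, lay nearest to a called probe set were sought as a description. For Cd37 1425736_at the nearest was Ms4a1, the gene of CD20 on B cells, at a Euclidean distance of 0.34 log2 units over the 6 arrays. Ifnz at 0.35 and Ttn at 0.39 followed. For Cd151 1427525_at the nearest were Phf21a at 0.14, Wdr78 at 0.15 and Jarid2 at 0.15. For Cd151 1451232_at they were Plac8 at 0.08, Iffo1 at 0.10 and Cpn1 at 0.10.

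Ms4a1 belongs to the B cell markers, and other genes of that list were lower as well. Of 11 B cell markers 10 were measured, of which 5 were called lower and 0 higher, and 8 were lower by the adjusted p, against 3.72% of all genes called lower and 23.2% lower by the adjusted p. Among probe sets above the median level 1 was called lower. Their summed linear signal was 1180 to 1215 on the HDAC11−/− arrays and 1735 to 1749 on the WT arrays, with an exact two-sided permutation p of 0.1, the smallest that 3 against 3 arrays can give. Ms4a1 had a log2 fold change of −1.84 (adjusted p = 2.73e-05 by limma), and the antigen receptor gene Cd79a fell by 0.75. On the HDAC11−/− arrays Ms4a1 read 5.30, 5.52 and 5.30, near the highest bacterial controls. The called genes Blnk and Cr2 did not rise above those controls on any HDAC11−/− array, so the size of their fall is a bound only. Pax5, Ebf1 and Fcer2a did not rise above the bacterial controls on any array. In bulk samples fewer cells of a type and less RNA per cell cannot be told apart, and the part of B cell RNA in the Cd37 difference was not tested.

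Of the markers of other cells that a CD4+CD25+ fraction can hold, some were also called, but no platelet or red cell marker was. The shares over all genes were 3.72% called lower and 3.46% called higher. Of 8 dendritic cell markers measured, 4 were called lower, with summed signals of 2472 to 2549 in HDAC11−/− and 5591 to 5766 in WT. The 4 were the class II genes H2-Aa at −1.60, H2-Ab1 at −1.43 and H2-Eb1, and Cd74. By the adjusted p 6 of the 8 were lower, against 23.2% of all genes. These included the defining marker Itgax at −0.39 and Zbtb46 at −0.26, both short of the fold threshold. Flt3 at 0.11 was not called, nor was Xcr1, which did not rise above the bacterial controls. Of 13 monocyte and macrophage markers 5 were called higher, with sums of 595 to 643 in HDAC11−/− and 451 to 475 in WT. All 5 had WT arrays that did not rise above the bacterial controls, 4 of the 13, the defining marker Itgam included, did not do so in either genotype, and on the scale of reference genes 2 were called higher and 1 lower. Mast cell and basophil markers had 2 of 7 called lower, Cpa3 and Kit, with sums of 259 to 300 in HDAC11−/− and 455 to 465 in WT, and the other 5 did not rise above the bacterial controls on any array. Of 7 markers of CD8 T and NK cells 2 were called lower, Gzma and Ncr1, with sums of 1653 to 1783 in HDAC11−/− and 2028 to 2093 in WT. By the adjusted p 4 of the 7 were lower and 1 higher, against 23.2% and 22.9% of all genes. The higher one was the defining marker Cd8b1 at 0.42, and the defining marker Cd8a stood at −0.04. Platelet markers, a lineage rich in Cd9 and Cd151, had 0 of 8 called, with sums of 336 to 378 in HDAC11−/− and 398 to 423 in WT, and Pf4, Ppbp and Gp5 did not rise above the bacterial controls. Of 5 plasma cell markers 1 was called lower, the defining marker Sdc1, with sums of 4256 to 4314 in HDAC11−/− and 4116 to 4194 in WT. By the adjusted p 2 of the 5 were lower, Sdc1 and the defining marker Jchain at −0.21, and 1 was higher, Xbp1 at 0.21. The plasma cell sum thus ran against both defining markers. Of 3 red cell markers 0 were called, with sums of 128 to 157 in HDAC11−/− and 109 to 112 in WT. The part of these cell types in the tetraspanin values was not tested.

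Of 14 Treg and CD4 T cell markers measured, 0 were called, against 3.72% of all genes called lower and 3.46% higher. Their summed signal was 47682 to 48336 in HDAC11−/− and 46259 to 47251 in WT. Foxp3 itself did not rise above the bacterial controls on any array of either genotype, so the defining gene of these cells was not measured. Il2ra, the gene of CD25, had a log2 fold change of −0.01. Immediate early genes, which respond to stimulation and to cell handling, had 11 of 16 called higher, against 3.46% of all genes. Their sums were 61674 to 62356 in HDAC11−/− and 14677 to 15207 in WT. Their part in the tetraspanin values was not tested either.

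The other tetraspanins of the mouse were read from a list of 24 genes, each by its brightest probe set, of which 20 were measured. None was called in either direction, against 3.72% of genes called lower and 3.46% called higher. By the adjusted p 4 were higher and 2 lower, against 22.9% of genes higher and 23.2% lower. On the scale of reference genes 2 were higher and 6 lower, with a list median of −0.12 beside −0.17 over all genes. The higher ones, chosen after their values were seen, were Rom1 of photoreceptor discs at 0.42, Tspan3 at 0.28, Tspan6 at 0.25 and Tspan13 at 0.23. The lower ones were Tspan32, a tetraspanin of blood cells, at −0.33 and Tspan10 at −0.26. Tspan32 read 11.38, 11.35 and 11.37 in HDAC11−/− and 11.66, 11.72 and 11.71 in WT, with no overlap. A dimmer probe set of Tspan6 was called higher at 0.76. The median over the 20 genes was 0.005, beside −0.04 over all genes, and 4 of the 20 (Tspan1, Tspan12, Upk1a and Prph2) did not rise above the bacterial controls.

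Tetraspanin partners are the integrins, immunoglobulin proteins and proteases that tetraspanins hold in the membrane. Of 24 measured, 1 was called higher and 1 lower, against 3.46% and 3.72% of all genes. Vcam1, an adhesion receptor, read 6.41, 6.29 and 6.14 in HDAC11−/− and 4.58, 4.80 and 5.41 in WT, and 1 of its 3 probe sets was called higher (adjusted p = 0.00232 by limma). Only WT replicate 3 rose above the bacterial controls, so the size of the difference rests on a WT level that was mostly not above them. Cr2, the gene of CD21 that pairs with CD81 and is also a B cell marker, was at least 1.21-fold lower, a bound since none of its HDAC11−/− arrays rose above the bacterial controls. By the adjusted p 4 of the 24 were higher and 7 lower, against 22.9% and 23.2% of all genes, and on the scale of reference genes 2 were higher and 14 lower. The lower ones included the integrin genes Itga4 at −0.30 and Itgb2 at −0.23 and Cd4 at −0.32, and the higher ones included the protease gene Adam10 at 0.25. A dimmer probe set of the integrin gene Itgav was called higher, with a bound of 1.28-fold, since none of its WT arrays rose above the bacterial controls. The list median was −0.10, beside −0.04 over all genes.

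Genes of endosomes and released vesicles, where tetraspanins are sorted, had 0 of 20 called higher and 1 called lower. The shares over all genes were 3.46% higher and 3.72% lower. The called gene was Pld2, which makes phosphatidic acid at membranes, at −0.73 (adjusted p = 0.000319 by limma). By the adjusted p 11 were higher and 4 lower, against 22.9% and 23.2% of all genes. The list median was 0.16, beside −0.04 over all genes. Chmp4b, a subunit of the ESCRT machinery that buds vesicles into endosomes, was among the higher at 0.46 and Rab11a, a GTPase of recycling endosomes, at 0.40. By a dimmer probe set, Pdcd6ip, which links ESCRT to its cargo, was called higher at 0.63 and the syndecan gene Sdc4 lower at −0.75. A dimmer probe set of Lamp2 was also called higher, with a bound of 1.21-fold, since none of its WT arrays rose above the bacterial controls. On the scale of reference genes 4 were higher and 4 lower by the adjusted p, with a list median of 0.03 beside −0.17 over all genes. The scale moves every fold change by the same amount, so the gap between both medians is fixed and is not a second observation.

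**Figure D4:**
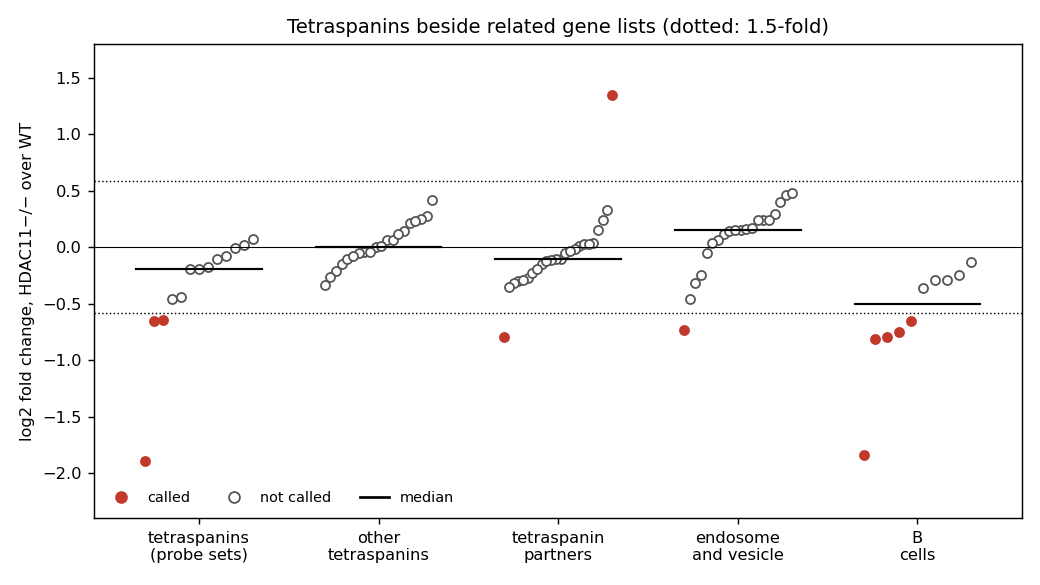
Log2 fold changes, HDAC11−/− minus WT (y axis), are plotted for the 13 tetraspanin probe sets and for 3 related lists and the B cell markers, 1 point per gene by its brightest probe set, filled where called, with a line at each median and fitted values also for genes given a bound in the text. The medians are −0.19 for the tetraspanin probe sets, 0.005 for other tetraspanins, −0.10 for partners, 0.16 for endosome and vesicle genes and −0.50 for B cell markers.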

How the data were processed

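RNA of magnetically separated Tregs was amplified, biotinylated and hybridised. The authors normalised the arrays by RMA in MAYDAY 2.12, and the deposited values are log2 signals of probe sets. The sources used here do not give which probe definitions were applied. The platform annotation gave 1 symbol to 20380 probe sets. All non-control probe sets were tested, dim ones included.

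HDAC11−/− was compared with WT by lmFit and eBayes in limma 3.58.1 under R 4.3.3 without covariates. Pairs of probe sets were fitted on their within-array difference. A group in which no array exceeded its highest bacterial control was given a bound only. The procedure was tested on simulated data. The members and lists were chosen with earlier results of these data known. All member probe sets are named, with called genes of the related lists (at most 4 each way) and the 3 genes nearest a called probe set. Of the cell type lists, only some of the called genes and defining markers are named. Genes named by the adjusted p alone were chosen after their values were seen. Alternatives were SAM, an intensity trend, array weights, a replicate block, reference-gene and bacterial-control scales, a filter above the median level, other fold thresholds, any probe set of a gene and leaving out each array. The number of arrays limits precision. Figures were drawn with matplotlib 3.10.9.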

Additional observations from a re-analysis of the deposited data

How the results depend on the processing

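The count of tetraspanin probe sets called lower was 3, and 2 to 3 when single arrays were left out. It was 6 with no fold threshold and 1 at 2-fold, and 10 were lower by the adjusted p on the reference-gene scale. Cd37 1419206_at, near 0, changed sign to 0.0145 on the bacterial-control scale and ran from −0.0353 to 0.0250 without single arrays. Cd81 turned to −0.0527 and Cd9 to −0.104 on the reference-gene scale, and Cd9 ran from −0.0140 to 0.0577 without single arrays. Pairs past the adjusted p ran from 2 to 5 without single arrays, and 5 pairs were called with no fold threshold. The Cd151 pair 1420921_at minus 1437670_x_at ran from −0.0835 to 0.124, 1424093_x_at minus 1456085_x_at from −0.0399 to 0.0994 and 1427525_at minus 1451232_at from −0.143 to 0.0692.

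Other tetraspanins had 2 lower and 4 higher with no fold threshold and 1 higher by any probe set. Partners had 0 lower and 0 higher above the median level, 7 lower and 4 higher with no fold threshold, 0 lower at 2-fold and 2 higher by any probe set. Endosome and vesicle genes had 4 lower and 11 higher with no fold threshold, 0 lower at 2-fold, 2 lower and 2 higher by any probe set, and 0 to 1 higher without single arrays, the 1 being Rab27a without WT replicate 1. The cause was not tested where the setting's own threshold does not show it.

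Same-numbered arrays of the genotypes correlated in their deviations at 0.23, −0.02 and 0.16, and differently numbered arrays from −0.21 to 0.06. With 3 arrays per genotype these values cannot decide whether the numbers pair the samples. With the replicate block 3 tetraspanin probe sets were called lower and Cd37 1425736_at stood at −1.89 (adjusted p = 0.000284 by limma), and no tetraspanin call changed. Probe sets near the bacterial controls, such as Cd151 1420921_at, have little signal over background.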
